A study of Mus musculus with 17 samples.

Results

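Mitochondria divide and fuse continually, and the 8 genes described here encode core proteins of those processes together with an uncoupling carrier and regulators of mitochondrial number. They are Mfn1, Mfn2, Opa1, Dnm1l, Fis1, Ucp2, Ppargc1a and Tfam, taken by symbol from a table of 15355 genes, and all 8 were found in it. The table comes from a mouse study of how a dam's high-fat diet relates to the RNA that POMC neurons of the offspring translate. These pro-opiomelanocortin cells sit in the arcuate nucleus and restrain feeding. In POMC RiboTag mice, cells in which the Pomc driver is or was active make a ribosomal protein with an HA tag, and an antibody to the tag pulls ribosomes and their RNA out of homogenised mediobasal hypothalamus.

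All 17 samples carried the RiboTag, including the chow controls. The dams entered the diets at 6 weeks of age, were mated 4 weeks later and kept their diet until postnatal day 21. There were 4 samples from offspring of dams on a 45% fat diet (HFD) at postnatal day 21 (P21) and 3 from offspring of chow-fed dams at P21. At postnatal day 0 (P0) there were 5 HFD and 5 chow samples. The labels name neither the animal, litter or pool behind a sample nor its sex, so the p-values below measure the spread between these samples. Replicate numbers are those of the labels.

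As background, mitofusins tether and fuse the outer membranes of neighbouring mitochondria, OPA1 fuses the inner membranes and shapes the cristae, and DRP1, the product of Dnm1l, assembles around a mitochondrion and constricts it. FIS1 is an outer membrane protein with a role in fission. UCP2 is a carrier of the inner membrane related to the thermogenic UCP1. In mouse hypothalamus, mitofusin 2 of POMC neurons and UCP2 have been linked to energy balance and glucose sensing. PGC-1alpha, from Ppargc1a, is a coactivator that drives the making of mitochondria, and TFAM packages and transcribes mitochondrial DNA.

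The libraries held 22.4 to 37.1 M reads (M, mega) over the table's genes, and each member had between 395 and 10850 reads in each library. Counting error alone was therefore at most 5.03% of a value, which covers sampling of reads and not the spread between samples. Values are the authors' normalised signal, in units whose column sums lie near 1 M, and differences are log2 differences of the value + 1. Pomc ranged from 7460 to 9818 units in the HFD libraries at P21 and from 3878 to 12070 in the chow libraries at P21. At P0 it ranged from 90.7 to 1057 in HFD and from 146 to 1308 in chow libraries. The pulled-down RNA also held markers of other cells. The 12 markers of microglia and macrophages summed to 254 to 371 units in HFD and 413 to 707 in chow libraries at P21, and to 169 to 234 in HFD and 166 to 248 in chow libraries at P0. The 10 markers of the oligodendrocyte lineage summed to 3946 to 7231 in HFD and 8134 to 18068 in chow libraries at P21, and to 337 to 451 in HFD and 429 to 1038 in chow libraries at P0. No marker of either list, nor of the 9 astrocyte markers, was at 0 in every library of a group. Their part in the results below was not tested. In pulled-down RNA, fewer cells and less RNA per cell cannot be told apart.

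Between P21 and P0, Mfn1, Mfn2, Dnm1l and Ucp2 rose in HFD offspring, by 0.50 to 0.76 on the log2 scale, and no member was called lower. These 4 of 8 are near the share of all genes tested, of which 50.9% were called there. The call for Dnm1l, the fission gene, held with each library left out in turn and with equal column totals, and those for the other 3 did not. In chow offspring none of the 8 passed the test between the ages, against 36.1% of all genes tested. Dnm1l passed there without chow replicate 5 at P0, and Dnm1l, Mfn2 and Ucp2 passed with the replicate number as a block. In HFD against chow offspring, none of the 8 passed at P21 or at P0, where 0.178% and 0.291% of all genes did. The diet by age interaction, which tests whether the change with age differed between the diets, passed for none of the 8. It passed for 0.0266% of all genes. The rise of the 4 genes is therefore not shown to be particular to HFD offspring.

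**Figure D1:**
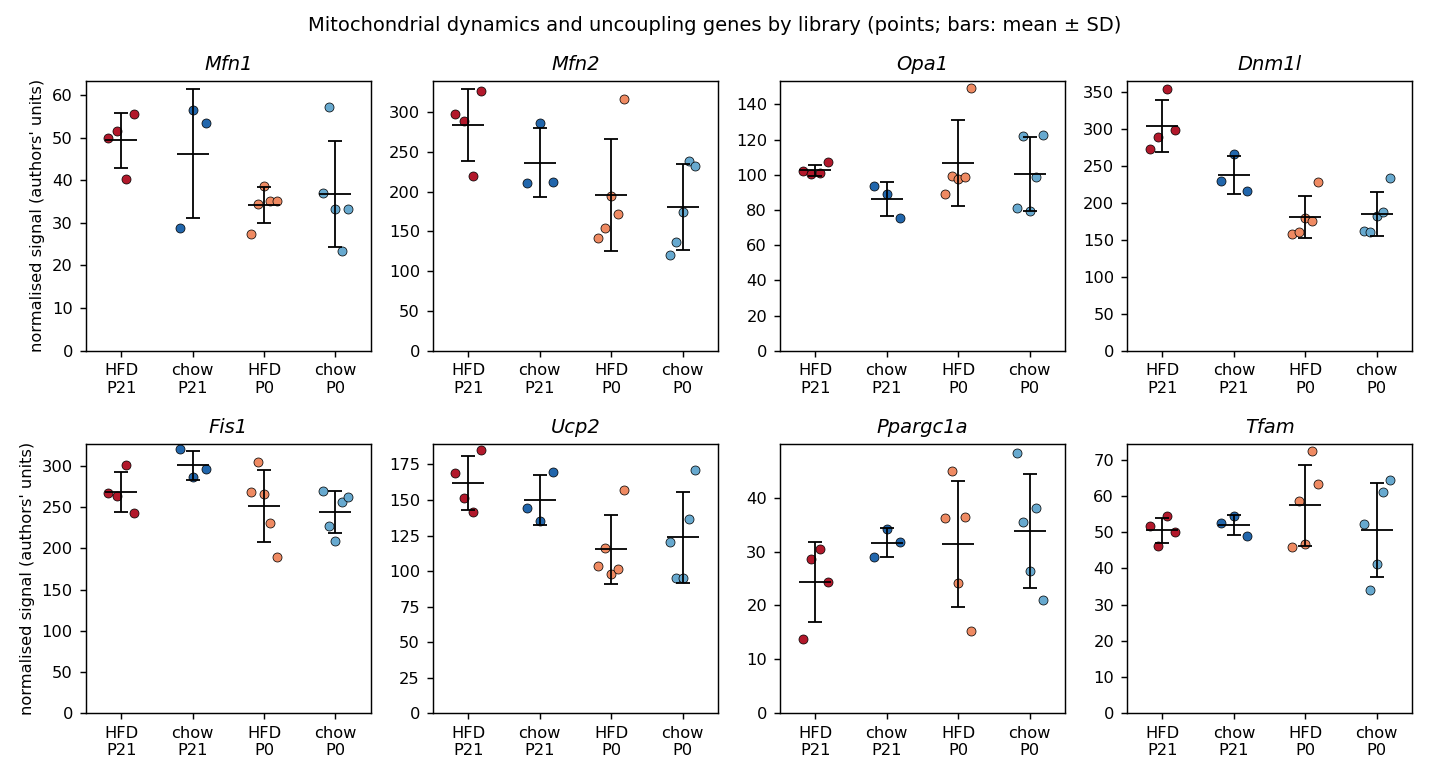
Normalised signal (authors' units, linear axes from 0) of the 8 genes in each library. Points are libraries, ordered within a group by replicate number, and bars are the mean and SD of HFD P21 (n = 4), chow P21 (n = 3), HFD P0 (n = 5) and chow P0 (n = 5). The 4 HFD libraries at P21 lie above all other libraries for Dnm1l, at 273 to 355 units.

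The sequences upstream of the 4 genes that rose, and of Opa1, which did not pass in any comparison, are shown so that their promoter letters can be read side by side. Each is the 250 bases before the RefSeq start, in the gene's own direction, from build GRCm38.p6. Capitals mark matches, on either strand, to the ETS, CRE core, GC box, CCAAT box and NRF1 motifs, whose letters are given after the sequences.
Mfn1 (chr3:32529232-32529481, plus strand): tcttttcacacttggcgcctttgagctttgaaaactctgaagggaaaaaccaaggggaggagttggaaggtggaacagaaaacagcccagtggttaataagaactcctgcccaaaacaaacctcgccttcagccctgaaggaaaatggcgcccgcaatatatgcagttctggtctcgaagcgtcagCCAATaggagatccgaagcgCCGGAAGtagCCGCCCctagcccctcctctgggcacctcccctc
Mfn2 (chr4:147904699-147904948, minus strand): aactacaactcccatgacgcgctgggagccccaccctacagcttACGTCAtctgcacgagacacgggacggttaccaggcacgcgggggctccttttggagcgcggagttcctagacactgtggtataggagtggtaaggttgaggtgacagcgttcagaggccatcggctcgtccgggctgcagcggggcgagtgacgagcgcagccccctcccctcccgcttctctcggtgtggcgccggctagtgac
Dnm1l (chr16:16359032-16359281, minus strand): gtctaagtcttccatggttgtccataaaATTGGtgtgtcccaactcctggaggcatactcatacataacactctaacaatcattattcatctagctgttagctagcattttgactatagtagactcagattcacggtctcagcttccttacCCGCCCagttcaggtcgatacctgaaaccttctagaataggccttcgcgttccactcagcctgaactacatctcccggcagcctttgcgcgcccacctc
Ucp2 (chr7:100493108-100493357, plus strand): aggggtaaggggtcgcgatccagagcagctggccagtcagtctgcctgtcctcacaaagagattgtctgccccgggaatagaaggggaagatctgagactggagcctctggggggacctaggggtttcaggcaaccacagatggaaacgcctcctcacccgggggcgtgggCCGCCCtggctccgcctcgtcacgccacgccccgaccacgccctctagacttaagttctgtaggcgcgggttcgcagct
Opa1 (chr16:29579084-29579333, plus strand): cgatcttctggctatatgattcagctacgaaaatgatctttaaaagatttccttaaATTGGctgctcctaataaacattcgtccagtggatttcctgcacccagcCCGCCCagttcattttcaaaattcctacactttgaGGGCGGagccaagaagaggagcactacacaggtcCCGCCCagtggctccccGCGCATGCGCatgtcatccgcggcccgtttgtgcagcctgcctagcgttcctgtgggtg

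No 2 matches overlap in these windows. The GC box, searched as GGGCGG, was in the windows of Mfn1, Dnm1l, Ucp2 and Opa1, and in 32.7% of all 32851 windows of that length. The CCAAT box, searched by those letters, was in those of Mfn1, Dnm1l, Opa1 and Fis1, against 33.8% of all windows. The ETS motif, searched as CCGGAAG, was in Mfn1 alone of the 5 printed, against 6.91% of all windows. The CRE core, searched as TGACGT, was in Mfn2 alone of the 5, against 6.47%. The NRF1 motif, searched as GCGCA followed directly by its reverse complement and named for a factor that binds promoters of nuclear genes for mitochondrial proteins, was in Opa1 alone of the 8 members, against 0.782% of all windows. Fis1 and Tfam also held the ETS motif and the GC box, and Ppargc1a held the CRE core. The RefSeq start of Tfam lies 236 bases from its GENCODE start, so most of its window lies inside the gene span given below. The ERR motif, searched as AAGGTCA, was in none of the 8 windows, against 4.08% of all windows. Neither was the E-box, searched as CACGTG, against 6.02%, or the TATA box, searched as TATAAA, against 12.4%. The GC content was 64.0% for Mfn2, 63.6% for Ucp2, 53.6% for Mfn1, 52.0% for Opa1 and 47.6% for Dnm1l, against a median of 52.4% over all windows.

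Dnm1l encodes DRP1, the dynamin-like GTPase that divides mitochondria. It lies on the minus strand at chr16:16312230-16358959 (GRCm38, GENCODE M21). It read 273, 289.6, 355 and 299 units in HFD replicates 1 to 4 at P21, against 157, 161, 180.2, 176 and 228 in HFD replicates 1 to 5 at P0. Every HFD library at P21 was above every HFD library at P0. It read 230.4, 267 and 217 in chow replicates 1 to 3 at P21, against 162, 161, 183, 188 and 235 in chow replicates 1 to 5 at P0. The chow groups overlap, because replicate 5 at P0 lies above 2 of the 3 libraries at P21.

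Dnm1l rose between P21 and P0 in HFD offspring by 0.76 ± 0.15 (log2 difference and SE, 95% interval 0.43 to 1.08, limma adjusted p = 0.000943). In chow offspring the difference was 0.36 ± 0.16 (95% interval 0.02 to 0.71, adjusted p = 0.0914). Between diets at P21, Dnm1l averaged 304 ± 35.6 units in HFD (SD, n = 4) and 238 ± 26.0 in chow offspring (n = 3). The difference was 0.35 ± 0.14 (95% interval 0.05 to 0.65), with an unadjusted p of 0.0261 in limma that became 0.23 after adjustment over all genes. At P0 the means were 181 ± 28.4 in HFD and 186 ± 29.7 in chow offspring (n = 5 each), a difference of -0.04 (95% interval -0.36 to 0.28). The interaction was 0.39 ± 0.21 (95% interval -0.05 to 0.84, adjusted p = 0.392).

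The 4 of 8 members called between P21 and P0 in HFD offspring stand against 50.9% of the 14245 genes tested, so their share is near that of all genes. Genes that rose made up 24.7% of those tested, and all 4 called members rose. In that comparison 3521 genes rose and 3729 fell, and with all columns scaled to the same total 2851 rose and 4583 fell. That scaling moved the median of all genes to -0.21, against -0.05. Only Dnm1l was still called under it, at 0.58 (adjusted p = 0.00341), which is 0.79 above the median of all genes, against 0.81 above it with the authors' scaling. Mfn1, Mfn2 and Ucp2 were at 0.35, 0.40 and 0.33 under equal totals, with adjusted p of 0.116, 0.114 and 0.0877. Dnm1l also kept its call without each library in turn, with differences from 0.68 to 0.84.

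**Figure D2:**
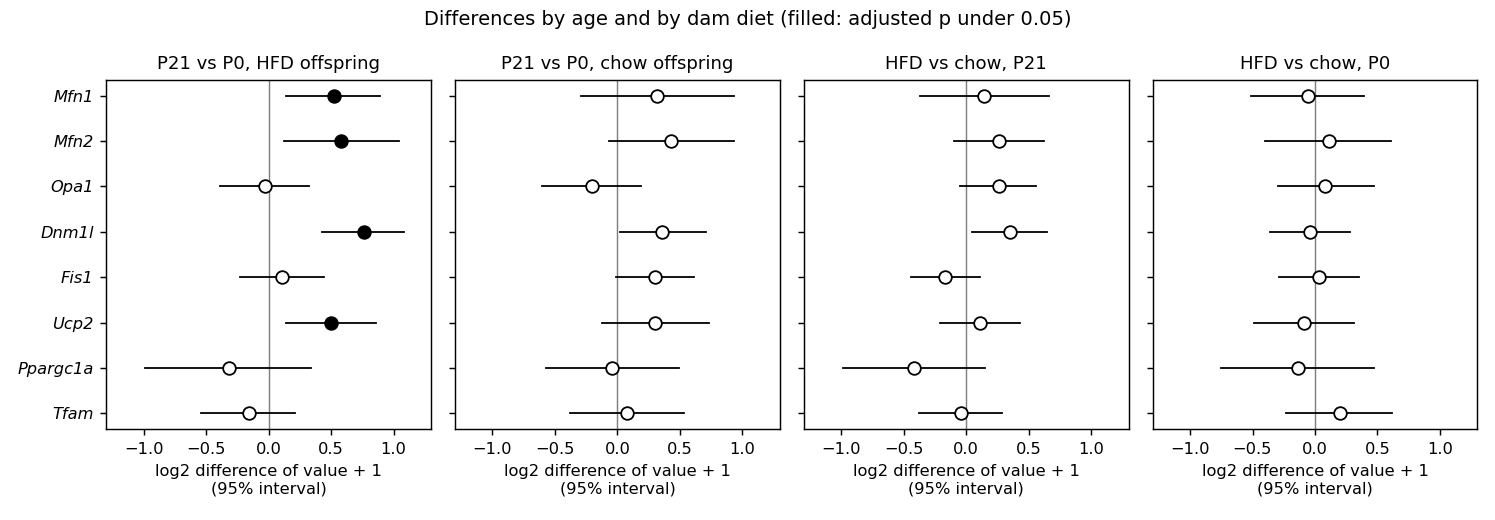
Log2 differences of the 8 genes (points) with 95% intervals (lines) from limma in 4 comparisons, with the age comparisons in the left pair of panels and the diet comparisons in the right pair. Filled points have an adjusted p under 0.05 over all genes tested. Mfn1, Mfn2, Dnm1l and Ucp2 are filled between P21 and P0 in HFD offspring, and no point is filled in the other panels.

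Mfn2 encodes the mitofusin that also tethers mitochondria to the endoplasmic reticulum. It lies on the minus strand at chr4:147873599-147904704. It read 298, 289, 220.3 and 327 units in the HFD libraries at P21, against 142, 154, 194, 172 and 316 in the HFD libraries at P0. The groups overlap through replicate 5 at P0 alone, which stands above 3 of the 4 libraries at P21. In chow offspring it read 211, 287 and 212 at P21, against 119.9, 137, 174, 239 and 233 at P0, and these groups overlap as well. The rise in HFD offspring was 0.58 ± 0.22 (95% interval 0.12 to 1.04, adjusted p = 0.0366). Without HFD replicate 5 at P0 it was 0.77 (adjusted p = 0.000415). The call was lost in 7 of the 9 fits that each left out 1 library, and in the edgeR count test (0.55, adjusted p = 0.0628). In chow offspring the difference was 0.43 (95% interval -0.07 to 0.93). Between diets it was 0.26 at P21 (95% interval -0.10 to 0.62) and 0.11 at P0 (95% interval -0.40 to 0.61).

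Mfn1 encodes the other mitofusin and lies on the plus strand at chr3:32529465-32579239. It read 49.9, 51.6, 40.2 and 55.6 units in the HFD libraries at P21, against 27.3, 34.4, 38.7, 35.0 and 35.1 in the HFD libraries at P0. These groups do not overlap. In chow offspring it read 28.8, 56.5 and 53.3 at P21, against 37.0, 57.2, 33.3, 23.3 and 33.4 at P0, and the range at P0 holds every library at P21. The rise in HFD offspring was 0.52 ± 0.17 (95% interval 0.14 to 0.89, adjusted p = 0.0233), and the call was lost in 4 of the 9 fits without a library. In chow offspring the difference was 0.32 (95% interval -0.29 to 0.93). The coefficient of variation of Mfn1 was 13.2% in HFD and 32.8% in chow offspring at P21, and 12.3% in HFD and 33.9% in chow offspring at P0. No test of the spread was made.

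Opa1, the inner membrane fusion GTPase, lies on the plus strand at chr16:29579334-29654884. It read 102, 100.2, 101 and 107 units in the HFD libraries at P21, against 93.7, 89.1 and 75.4 in the chow libraries at P21. All HFD libraries were above all chow libraries, as for Dnm1l. At P21, 2 of the 8 members had diet groups that do not overlap, against 16.1% of the 14070 genes tested. The Opa1 difference was 0.26 (95% interval -0.05 to 0.56, adjusted p = 0.375). At P0 Opa1 read 88.8, 99.2, 97.4, 98.8 and 149.6 in HFD libraries, against 81.0, 122, 79.4, 98.6 and 122 in chow libraries, and these ranges overlap. Between P21 and P0 it differed by -0.03 in HFD (95% interval -0.39 to 0.32) and by -0.20 in chow offspring (95% interval -0.60 to 0.19).

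Because Dnm1l and Opa1 are measured in the same library, their ratio does not depend on how a library was scaled. The ratio of Dnm1l to Opa1 signal was 2.97 ± 0.379 in HFD and 2.78 ± 0.283 in chow offspring at P21, and 1.71 ± 0.133 in HFD and 1.89 ± 0.354 in chow offspring at P0 (mean ± SD). It ran from 2.68 to 3.52 in HFD libraries at P21, against 1.53 to 1.85 in HFD libraries at P0. In chow offspring it ran from 2.46 to 3.00 at P21, against 1.32 to 2.30 at P0. At both diets every P21 library was above every P0 library. For single genes, the age groups did not overlap for 38.7% of those tested in HFD and 37.2% in chow offspring. No such share was computed over ratios of other genes. The ratio of Dnm1l to Fis1 ran from 1.02 to 1.23 in HFD and from 0.719 to 0.933 in chow libraries at P21. At P0 it ran from 0.528 to 1.20 in HFD and from 0.603 to 0.896 in chow libraries. The ratio of Mfn2 to Mfn1 averaged 5.74 ± 0.230 in HFD and 5.46 ± 1.71 in chow offspring at P21, and 5.72 ± 1.85 in HFD and 5.62 ± 3.14 in chow offspring at P0. These ratios were chosen after the values had been seen and were not tested.

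Fis1, at chr5:136953275-136966234 on the plus strand, ran from 242 to 301 units in HFD and from 286 to 320.3 in chow libraries at P21. At P0 it ran from 189.6 to 304 in HFD and from 209 to 269 in chow libraries. In chow offspring the P21 libraries were all above the P0 libraries, which made Fis1 the 1 member of 8 whose chow age groups do not overlap, against 37.2% of the 14549 genes tested. The difference there was 0.30 (95% interval -0.01 to 0.61, adjusted p = 0.116). In HFD offspring it was 0.11 between the ages (95% interval -0.23 to 0.44). Between diets at P21 it was -0.17 (95% interval -0.44 to 0.11). The counts called in the chow age comparison, 0 of 8 members, stand against 36.1% of the genes tested there, and 1 member had an unadjusted p under 0.05, against 45.6% of those genes.

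Ucp2, the uncoupling carrier, lies on the plus strand at chr7:100493337-100502020. It read 169, 152, 142 and 185 units in the HFD libraries at P21, against 104, 117, 97.8, 101 and 157 in the HFD libraries at P0. The groups overlap through replicate 5 at P0 alone. In chow offspring it read 145, 135 and 169.6 at P21, against 121, 94.9, 95.3, 137 and 171 at P0, and chow replicate 5 at P0 was above every library at P21. The rise in HFD offspring was 0.50 ± 0.17 (95% interval 0.14 to 0.86, adjusted p = 0.0217), and the call was lost in 5 of the 9 fits without a library. In chow offspring the difference was 0.30 (95% interval -0.12 to 0.73). Between diets it was 0.11 at P21 (95% interval -0.21 to 0.43) and -0.09 at P0 (95% interval -0.49 to 0.31). The exons of Ucp2 share 4.36% of their bases with Dnajb13 on the opposite strand, and those of Dnm1l share 4.67% with the antisense gene Gm49521. The strand setting of the authors' counting is not given in the sources used here. Reads from those bases cannot be told apart in the deposited values.

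Ppargc1a, at chr5:51454250-51567726 on the minus strand, encodes PGC-1alpha and had the lowest level per kb of transcript of the 8. It read 13.9, 28.6, 30.5 and 24.4 units in the HFD libraries at P21, against 29.0, 34.2 and 31.8 in the chow libraries at P21. The HFD range reaches below the chow range through 3 libraries and overlaps it through 1. The difference was -0.42 ± 0.26 (95% interval -0.99 to 0.15, adjusted p = 0.44), and HFD replicate 1 holds the lowest value of the 17 libraries. Without that library the difference was -0.18 (adjusted p = 0.741). At P0 it ran from 15.3 to 45.0 in HFD and from 21.0 to 48.3 in chow libraries. Between P21 and P0 it differed by -0.32 in HFD (95% interval -0.99 to 0.34) and by -0.04 in chow offspring (95% interval -0.57 to 0.49).

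Tfam, at chr10:71225464-71238280 on the minus strand, had nearly the same mean in 3 groups. It averaged 50.5 ± 3.46 units in HFD and 52.0 ± 2.72 in chow offspring at P21, and 57.4 ± 11.3 in HFD and 50.6 ± 12.9 in chow offspring at P0. Its coefficient of variation was 6.85% in HFD and 5.23% in chow offspring at P21, and 19.6% in HFD and 25.5% in chow offspring at P0. The differences between ages were -0.16 in HFD (95% interval -0.54 to 0.21) and 0.08 in chow offspring (95% interval -0.38 to 0.53). Between diets they were -0.04 at P21 (95% interval -0.38 to 0.29) and 0.20 at P0 (95% interval -0.23 to 0.62).

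Levels per kb use, for each gene, the longest transcript tagged as principal in the annotation. On that scale Fis1, with a transcript of 0.786 kb, had the highest level of the 8 in every group. It averaged 342 ± 31.0 units per kb in HFD and 383 ± 22.4 in chow offspring at P21. In HFD offspring at P21 the order below it was Dnm1l at 76.7 ± 8.97, Mfn2 at 65.3 ± 10.4, Ucp2 at 40.6 ± 4.78, Opa1 at 16.5 ± 0.505, Tfam at 12.1 ± 0.831, Mfn1 at 10.8 ± 1.43 and Ppargc1a at 3.76 ± 1.15 units per kb. The ranges of mean ± SD overlap between the neighbours Dnm1l and Mfn2 and between Tfam and Mfn1, and between no other neighbours there. In HFD offspring at P0 Dnm1l and Mfn2 were level at 45.5 ± 7.17 and 45.1 ± 16.1 units per kb. The lengths are those of 1 annotated transcript per gene, 3.988 kb for Ucp2. A shorter transcript would give a higher level per kb and can change the order. Which transcripts these cells use was not measured.

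Across all members the median difference in HFD against chow offspring was 0.13 at P21, against -0.02 over all genes tested, and -0.01 at P0, against 0.00. Called genes made up 0.178% of those tested at P21, 0.291% at P0 and 0.0266% in the interaction, and 0 of 8 members were among them in each of these 3 comparisons. In limma 1 member, Dnm1l, had an unadjusted p under 0.05 at P21, against 2393 of the 14070 genes tested. None did at P0, against 9.28% of all genes, or in the interaction, against 15.2%. The edgeR count test called no member in these comparisons either. At P0, 0 of 8 members had diet groups that do not overlap, against 2.45% of all genes. The median difference between P21 and P0 was 0.30 in HFD, against -0.05 over all genes, and 0.30 in chow offspring, against -0.01. The age comparisons of the diets use separate libraries, but each shares its libraries with the diet comparisons. Between P21 and P0 in HFD offspring, 2 members, Mfn1 and Dnm1l, had groups that do not overlap, against 38.7% of all genes.

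**Figure D3:**
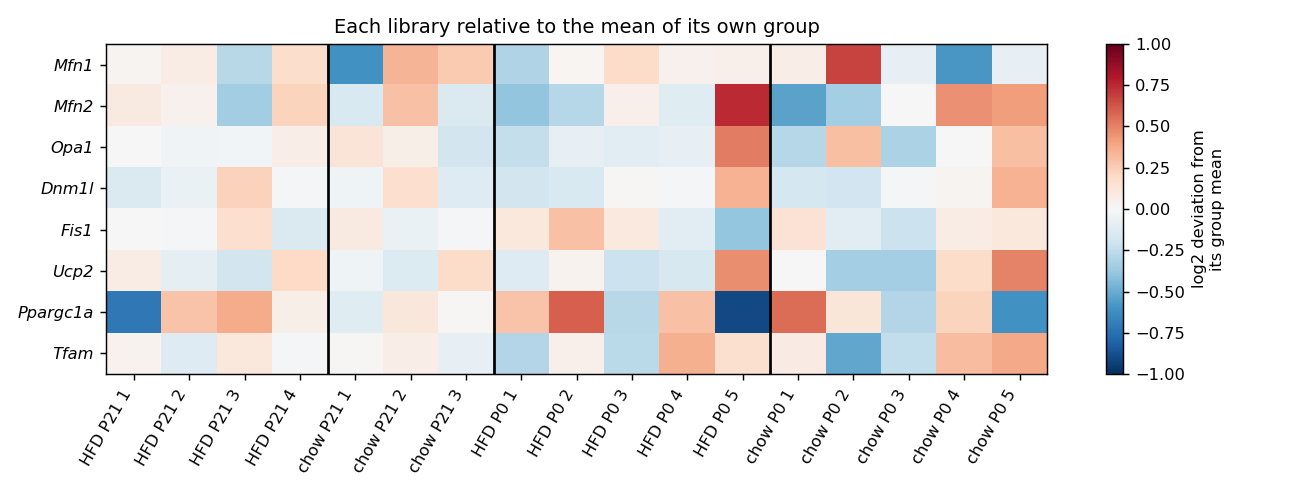
Deviation of each library from the mean of its own group, as the difference of log2(value + 1), for the 8 genes in 17 libraries, with black lines between the groups. Red is above and blue below the group mean. HFD replicate 5 at P0 and chow replicate 5 at P0 are both above their groups for Mfn2, Opa1, Dnm1l and Ucp2 and below for Ppargc1a.

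Within groups the members did not move as 1 block. HFD replicate 5 at P0 was above its group mean by 0.75 for Mfn2, 0.51 for Opa1, 0.46 for Ucp2 and 0.35 for Dnm1l, and it was at -0.90 for Ppargc1a and -0.39 for Fis1. Chow replicate 5 at P0 was above its group mean by 0.50 for Ucp2, 0.42 for Mfn2, 0.35 for Dnm1l and 0.30 for Opa1, and it was at -0.61 for Ppargc1a and 0.10 for Fis1. These are log2 deviations, and each of these libraries had the highest Pomc of its group, 1057 and 1308 units. Over the deviations of all 17 libraries, Pearson r was 0.69 between Mfn2 and Dnm1l, 0.63 between Mfn2 and Ucp2, 0.60 between Mfn2 and Opa1 and -0.68 between Mfn2 and Ppargc1a. Mfn1 had r of -0.06 with Mfn2, -0.15 with Dnm1l and 0.15 with Opa1. These values describe libraries that share depth and cell content across genes.

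Of all genes tested, those whose deviations were most like the members' over the 17 libraries were Ppp6c (r = 0.948) and Slc25a17 (0.941) for Dnm1l, 2610301G19Rik and Clptm1 (both 0.959) for Mfn2, and Cxcl12 and Heg1 (both 0.863) for Mfn1. They were Adcyap1 (0.886) and Dgke (0.876) for Opa1, Bax (0.921) and Ndufb9 (0.917) for Fis1, and Ust (0.896) and Pafah1b2 (0.881) for Ucp2. They were Bmpr1a (0.897) and Rassf3 (0.888) for Ppargc1a, and Fen1 (0.878) and Armcx5 (0.855) for Tfam. Each is the top of a search over all genes.

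Around the 8 genes, 85 of 86 listed genes of 9 mitochondrial groups were in the table. In HFD offspring 31 of the 84 tested rose and 10 fell between P21 and P0 (48.8%, against 50.9% of all genes), or 27 and 17 with equal column totals. In chow offspring 24 of 85 rose and 9 fell (38.8%, against 36.1%). Over all genes, 3521 of 14245 rose and 3729 fell in HFD offspring, and 2669 of 14549 rose and 2582 fell in chow offspring. The counts of each list below stand against these. None of the listed genes was called between the diets at P21 or at P0, or in the interaction, and edgeR called 0 of them. An unadjusted p under 0.05 was found for 12 of 85 at P21, 6 of 84 at P0 and 13 of 85 in the interaction, against 2393 of 14070, 1307 of 14086 and 2290 of 15037 over all genes. Without HFD replicate 5 at P0, 4 listed genes were called higher and 2 lower in the interaction, and 1 was called lower between the diets at P0. Without HFD replicate 2 at P21, 1 was called higher between the diets at P21, and with the replicate block 2 were called lower in the interaction. The 8 members were not called in any of these fits.

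Among fission adaptors and regulators, 4 of 11 rose and 2 fell with age in HFD offspring, and 3 rose and 2 fell in chow offspring. With equal column totals 3 rose and 4 fell in HFD offspring. Mtfp1, an inner membrane protein that promotes fission, averaged 87.3 ± 14.9 units at P21 against 10.4 ± 1.95 at P0 in HFD offspring, a difference of 2.95 (adjusted p = 1.23e-07). In chow offspring it averaged 86.0 ± 7.37 at P21 against 15.2 ± 2.94 at P0, a difference of 2.44 (adjusted p = 3.43e-06). Mul1, an outer membrane ubiquitin ligase, rose by 0.97 in HFD and 1.01 in chow offspring. Slc25a46, an outer membrane protein of the carrier family, rose by 0.64 in HFD offspring. Inf2, a formin at contacts with the endoplasmic reticulum, rose by 2.24 in chow offspring, from a low 0.782 ± 0.457 units at P0 to 7.41 ± 2.47 at P21. In this and the other lists, a gene given for 1 diet only was among the 3 of smallest p in that diet alone. It is not thereby shown to differ between the diets.

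Among the inner membrane proteases and scaffolds of fusion, 4 of 11 rose and 2 fell in HFD offspring, and 2 rose and 2 fell in chow offspring. Afg3l2, a subunit of the m-AAA protease, rose by 0.98 in HFD and 0.90 in chow offspring. Pld6, an outer membrane phospholipase, was at -1.67 in HFD and -1.91 in chow offspring, and Phb2, a prohibitin that regulates OPA1 processing, at -0.67 and -0.55. Of the cristae junction genes and their partners, 2 of 9 rose and none fell in HFD offspring, and 1 rose and 1 fell in chow offspring. With equal totals 1 rose and 1 fell in HFD offspring, and 0 rose and 1 fell in chow offspring. Minos1, a core subunit of the cristae junction complex, rose by 0.68 in HFD and 0.44 in chow offspring.

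Of the biogenesis regulators 1 of 10 rose and 2 fell in HFD offspring, and 2 rose and 3 fell in chow offspring. Sirt3, the mitochondrial deacetylase, rose by 0.77 at both diets. Prkaa2, a catalytic subunit of the energy sensor AMPK, was at -1.32 in HFD and -0.87 in chow offspring. Gabpa, a DNA-binding ETS factor, was at -0.61 in HFD offspring, and Nrf1, a factor that acts on nuclear genes for mitochondrial proteins, at -0.89 in chow offspring. Of the genes for transcription and replication of mitochondrial DNA, 3 of 9 rose in HFD offspring, namely Tfb1m (1.64), Top1mt (1.29) and Ssbp1 (0.73), and 0 of 9 passed in chow offspring. Ssbp1 was at 0.32 in chow offspring (limma adjusted p = 0.213).

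Of the uncoupling protein family and adenine nucleotide carriers, 2 of 5 tested rose in HFD offspring, and 2 of 6 rose and 1 fell in chow offspring. Slc25a14, also known as UCP5, averaged 169 ± 32.0 units in HFD and 90.0 ± 2.38 in chow offspring at P21, and 42.8 ± 14.4 in HFD and 42.6 ± 11.7 in chow offspring at P0. It rose by 2.00 in HFD and 1.11 in chow offspring, and between diets at P21 it differed by 0.89 (adjusted p = 0.059). Slc25a27, also known as UCP4, was at -0.53 between the ages in chow offspring (adjusted p = 0.0395). Ucp3, a close relative of Ucp2, ran from 0.47 to 2.35 units in HFD and from 1.24 to 5.19 in chow libraries at P21. It was listed at 0 in 4 of the 5 HFD libraries and in all 5 chow libraries at P0. Slc25a4, an adenine nucleotide carrier, rose by 0.59 in HFD offspring, to 1660.0 ± 205 units at P21 against 1104 ± 135 at P0.

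**Figure D4:**
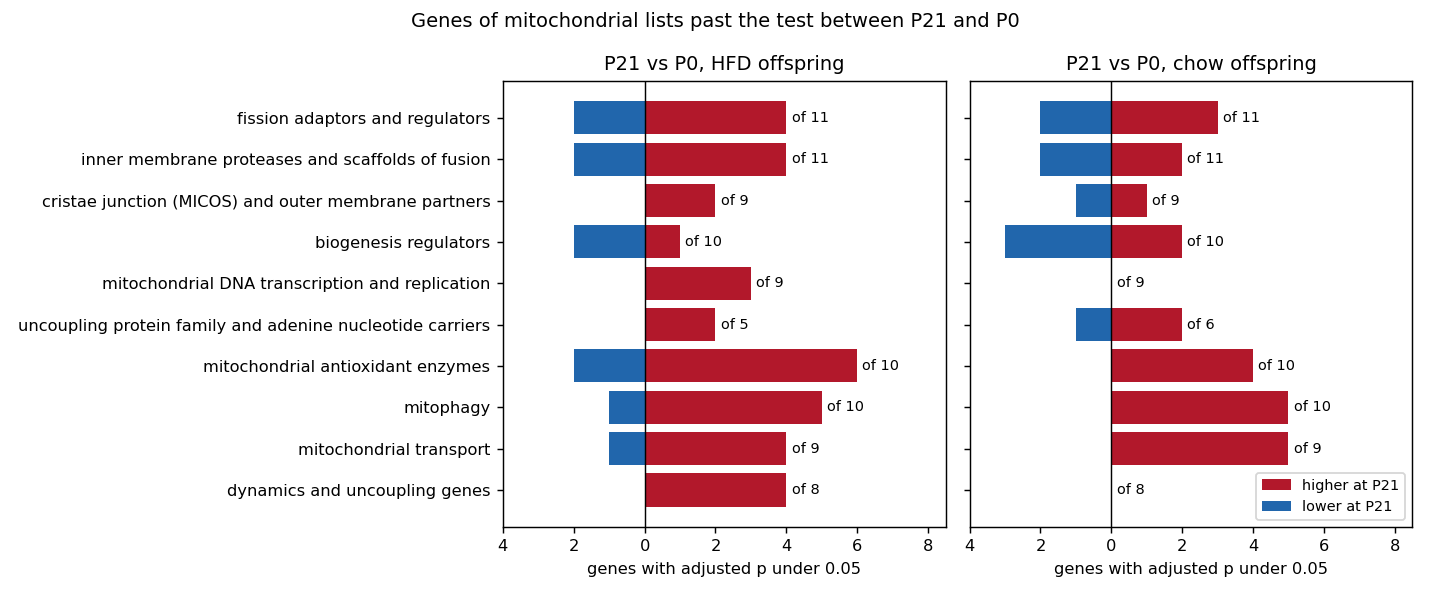
Number of genes with an adjusted p under 0.05 between P21 and P0 in 9 lists of mitochondrial genes and in the 8 genes described here, for HFD offspring (left) and chow offspring (right). Bars to the right of 0 count genes higher at P21, bars to the left count genes lower at P21, and the number after each bar is how many were tested.

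Of the mitochondrial antioxidant enzymes, 6 of 10 rose and 2 fell in HFD offspring, and 4 rose and none fell in chow offspring. Sod2, the superoxide dismutase of the matrix, rose by 0.87 in HFD and 0.68 in chow offspring. Prdx3, a matrix peroxiredoxin, rose by 1.22 in HFD offspring, and Gpx4, which reduces lipid peroxides, by 0.70 in chow offspring. Of the mitophagy genes 5 of 10 rose and 1 fell in HFD offspring, and 5 rose and none fell in chow offspring. Fundc1, a mitophagy receptor, rose by 1.59 in HFD and 1.15 in chow offspring, Sqstm1, an autophagy adaptor, by 1.60 and 1.34, and Pink1, the kinase that marks damaged mitochondria, by 0.96 in chow offspring. With equal column totals the mitophagy counts in HFD offspring were 3 higher and 2 lower.

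Of the mitochondrial transport genes 4 of 9 rose and 1 fell in HFD offspring, and 5 rose and none fell in chow offspring. With equal totals 4 rose and 3 fell in HFD offspring. Snph, which anchors mitochondria to microtubules in axons, rose by 1.13 in HFD and 1.32 in chow offspring. The kinesin heavy chain genes Kif5a and Kif5b rose by 1.08 and 0.65 in HFD, and by 1.36 and 0.88 in chow offspring. Over the same ages 8 of 9 POMC neuron markers rose in HFD and 5 of 9 in chow offspring. Of the microglia and macrophage markers 5 of 12 rose in HFD and 10 of 12 in chow offspring, and of the oligodendrocyte lineage markers 6 of 10 rose and 2 fell in HFD and 7 of 10 rose in chow offspring. Of the astrocyte markers 7 of 9 rose and 1 fell in HFD and 7 of 9 rose in chow offspring. Of the markers of other hypothalamic neurons 11 of 13 rose in HFD and 10 of 13 in chow offspring. Of the pan-neuronal markers 2 of 6 rose and 2 fell in HFD offspring, and 2 rose and 2 fell in chow offspring. Of the fibroblast and meningeal markers 5 of 6 fell in HFD and 3 of 6 in chow offspring. Of the tanycyte, ependymal and choroid plexus markers 5 of 8 fell in HFD offspring, and 1 rose and 2 fell in chow offspring. Of the endothelial and mural markers 1 of 9 rose and 5 fell in HFD offspring, and 1 rose and 1 fell in chow offspring. Of the markers of dividing cells 4 of 5 fell in HFD and 5 of 5 in chow offspring. Their part in the changes of the mitochondrial genes was not tested.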

How the data were processed

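The deposited table holds normalised signal per gene symbol for 17 libraries. Nextera XT libraries of the RNA on HA-tagged ribosomes were sequenced single-end over 50 bases, per the labels' protocols. Build mm10 was used with TopHat2 (2.0.13) and HTSeq (0.6.1), and edgeR, Picard (1.80) and FastQC are also named, per the submitters' processing notes. The table has 15 empty columns and no column of an unlabelled sample.

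From the values, the deposited signal is whole reads times a factor per library. At least 99.993% of non-zero values were whole within the rounding of 0.005, where random placement would give 21.8% to 36.3%. The steps were sharp in 6 libraries. In the other 11, rounding reached up to 0.18 of a step. Counts recovered from all 17 were used only for depth and for an edgeR 4.0.16 quasi-likelihood test, an alternative chosen after the data were seen. It called 3358 genes higher and 3430 lower between P21 and P0 in HFD offspring.

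Each comparison was fitted over all genes in limma (3.58.1, under R 4.3.3), taking log2(value + 1), which understates changes of low genes, with a mean-variance trend, two-sided, and Benjamini-Hochberg adjustment at 0.05. To be tested, a gene had to exceed 1 in at least the number of libraries of the smaller group, and all 8 members passed. Each comparison used its own libraries, and the interaction all 17. In simulated data 200 genes were changed per comparison. Between P21 and P0 in HFD offspring, 49% of those changed by 1 on the log2 scale and 93% of those changed by 2 were recovered. Between the ages in chow offspring the shares were 45% and 94%. They were 47% and 87% between the diets at P21, 50% and 93% at P0, and 23% and 87% in the interaction. In the real data 50.9% of genes were called between P21 and P0 in HFD offspring and 36.1% in chow offspring. The simulated shares therefore do not give the recovery in either age comparison. No change below 1 was simulated, and every member difference was below 1. Members and lists were chosen with earlier results of these data known. All members are named, with the 3 genes of smallest p per list and age comparison (some only counted), and for each member the 2 genes most alike.

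Coordinates and overlaps come from GENCODE M21 (GRCm38, the assembly of mm10), which matched 93.8% of symbols and all 8 members, and upstream sequences from RefSeq. Of the 50-base stretches of the transcripts, 4.90% for Dnm1l and 3.53% for Ucp2 also occur in another gene, and Mfn1 and Mfn2 share 0. Other scalings, pseudocounts, filters, fits and left-out libraries were tried as alternatives.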

Additional observations from a re-analysis of the deposited data

Results flagged for a closer look

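Opa1 in HFD replicate 5 at P0 was far from the other libraries of its group. It read 149.6 units, against 88.8 to 99.2 in the other 4, and its gap to the nearest, as a share of the range of the group, is above Dixon's 95% critical value for 5 libraries. Over the 24 groups of 4 or 5 libraries examined, chance marks about 1 in 20. The same library had the highest Mfn2, Dnm1l, Ucp2 and Pomc of its group. Without it the Opa1 difference between P21 and P0 in HFD offspring was 0.09, against -0.03 with it, and neither passed the test.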

How the results depend on the processing

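Of 720 values of a member under an alternative, 672 kept their direction and their side of the threshold, 22 lost their call, 4 gained one and 22 changed sign. No member was called between the diets or in the interaction under any alternative run. Between P21 and P0 in HFD offspring 1 member was called with equal column totals, and 1 to 4 without a library; Dnm1l kept its call in each. In chow offspring 0 to 1 members were called without a library (Dnm1l at 0.45, adjusted p = 0.0281, without chow replicate 5 at P0). With the replicate number as a block 3 were called there (Mfn2 at 0.72, Ucp2 at 0.53, Dnm1l at 0.49) and Opa1 changed sign in HFD offspring (0.09). Same-numbered libraries did not deviate together throughout (r from -0.18 to 0.51 at P0), so the numbers are not taken to pair them. With equal totals Fis1 changed sign in HFD offspring (-0.07). None of the values that changed sign had passed the test, and their cause was not tested. Without a library, differences between the diets at P0 ran from -0.20 to 0.11 for Mfn1, -0.08 to 0.22 for Mfn2, -0.04 to 0.16 for Opa1, -0.13 to 0.05 for Dnm1l, -0.04 to 0.13 for Fis1, -0.20 to 0.04 for Ucp2 and -0.29 to 0.09 for Ppargc1a. At P21 they ran from -0.16 to 0.31 for Mfn1 and -0.08 to 0.00 for Tfam. Between ages they ran from -0.19 to 0.10 for Ppargc1a and -0.05 to 0.17 for Tfam in chow, and from -0.09 to 0.09 for Opa1 in HFD offspring. The Mfn1 interaction ran from -0.10 to 0.37. Without HFD replicate 5 at P0, 301 genes were called higher and 256 lower in the interaction, against 2 and 2. With equal totals 13 genes were called higher and 22 lower between the diets at P21, against 14 and 11, and 2 and 7 in the interaction.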

Other observations

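Among the 10 newborn libraries, the members were set against Pomc after the values had been seen, on log2(value + 1) over both diets. The permutation p-values do not account for that choice, and their adjustment covers the 8 members only. How many of all genes have such an r was not computed. Pearson r with Pomc was 0.81 for Dnm1l (permutation p = 0.00259, adjusted over 8 genes 0.0207), and Spearman rho was 0.77 (permutation p = 0.0134, adjusted 0.107). For Mfn2, r was 0.75 (permutation p = 0.0138, adjusted 0.055) and rho 0.67 (permutation p = 0.0388, adjusted 0.155), and for Ucp2, r was 0.72 (permutation p = 0.0206, adjusted 0.055) and rho 0.55 (permutation p = 0.106, adjusted 0.211). The other 5 members had r from -0.55 to 0.49, with adjusted permutation p of 0.204 or more. Without the 2 libraries farthest from the median of Pomc, replicate 5 of each diet, r was 0.61 for Dnm1l, 0.56 for Mfn2 and 0.37 for Ucp2.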
